A study of Mus musculus with 8 samples.

Results

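The transcription factor genes Pou3f4, Irx1, Irx2, Irx3 and Irx5 are 5 of the 55536 genes counted in MIN6 cells, a mouse insulinoma line that makes insulin and is used as a model of the pancreatic β-cell. They were found by symbol, and all 5 were present. RNA was sequenced 48 h after plasmid transfection with Lipofectamine 3000 in 8 libraries of wild-type MIN6 cells. The 4 control libraries came from cells given the empty vector pcDNA 3, and the other 4, called Klf4 libraries here, from cells given pGloMyc-Klf4, which expresses the zinc-finger transcription factor Klf4. Both groups hold replicates 1 and 2 in batch 1 and replicates 3 and 4 in batch 2. The plasmids differ by name in their backbone as well as in Klf4, MIN6 is a single cell line, and the labels do not give the share of cells that took up plasmid. The labels call the replicates biological, without saying what was separate between them. The question set by the series title is how KLF4 bears on the identity of α-cells, the glucagon-secreting cells of the islet.

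The Iroquois genes encode homeodomain proteins of the TALE class, named for the extra residues in a loop of the homeodomain. Mammals carry them in a pair of genomic clusters, with Irx1, Irx2 and Irx4 in one and Irx3, Irx5 and Irx6 in the other, and they are best known for patterning the neural tube, heart and limb. In the islet, Irx1 and Irx2 are known as genes of the α-cell that β-cells lack. Pou3f4, also called Brain-4, is a POU-domain factor that marks α-cells and can bind the glucagon gene's promoter.

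Libraries held between 45417853 and 52731176 counts. Klf4 itself went from 40.1 ± 3.11 to 5040 ± 567.2 CPM (the count scaled to a common library size with TMM factors; SD, n = 4), which checks the labels. All 8 β-cell markers examined, among them Ins1, Ins2 and Pdx1, were above 1 CPM in every library. This goes with the label but cannot tell MIN6 cells from other cells that hold these transcripts. Of the 18266 genes that passed the filter on low counts, 36.6% changed between the groups by edgeR's quasi-likelihood test at a Benjamini-Hochberg adjusted p under 0.05, with 21.1% of genes higher and 15.5% lower in the Klf4 libraries. Every Klf4 library lay above every control library for 17.2% of tested genes and below for 8.93%, so that the groups did not overlap for 26.1%. A higher call, as the word is used here, therefore has a background of 21.1% over all genes, and of 29.4% among the 4513 tested genes whose control mean was under 1 CPM, to which Irx2, Irx3 and Irx5 belonged. The 29.4% is raised by 549 genes called higher that reached the filter's 0.204 CPM in all 4 Klf4 libraries and no control library. Irx3 was of that kind, and Irx2 and Irx5 reached it in all 4 control libraries. Irx1 and Pou3f4 did not pass the filter. Of the 8 β-cell markers, Iapp (log2 fold change -0.07), Pdx1 (-0.12) and Slc30a8 (-0.22) were called lower and none was called higher.

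Irx2 and Irx5 rose with the Klf4 plasmid, Irx3 went from no counts to 1.98 CPM, Irx1 appeared at a few counts that did not hold up across tests, and no change was detectable in Pou3f4. All 5 were low: Irx5, the most abundant, reached 3.7 CPM. With so few counts in bulk RNA, a small number of cells with much transcript and many cells with little cannot be told apart.

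**Figure D1:**
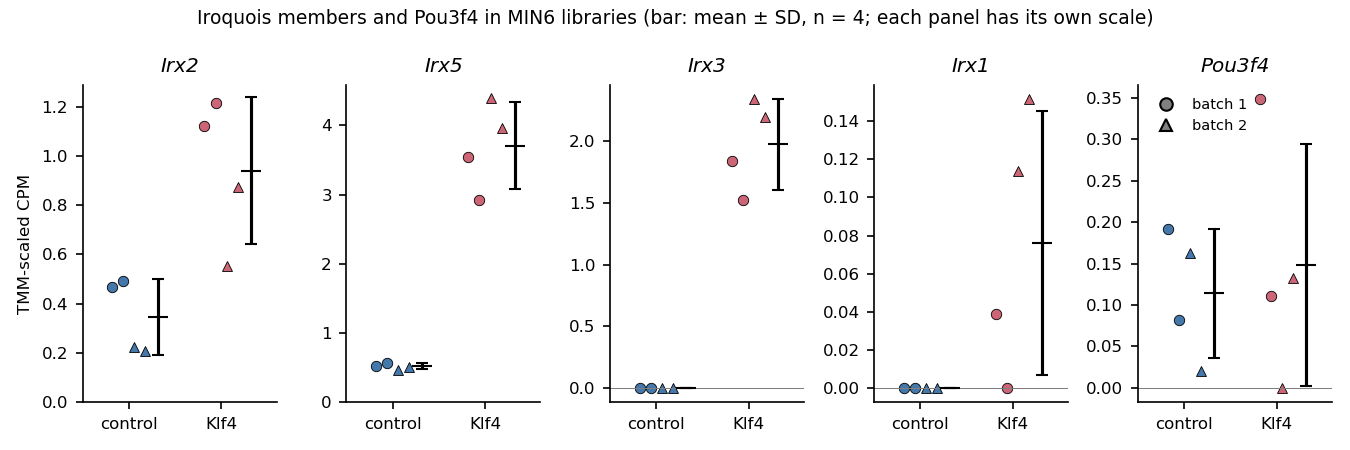
TMM-scaled CPM of Irx2, Irx5, Irx3, Irx1 and Pou3f4 in each of the 8 libraries (points; circles batch 1, triangles batch 2), with the mean ± SD of each group (n = 4). Each panel has its own linear scale, and the groups are apart for Irx2, Irx5 and Irx3 and overlap for Irx1 and Pou3f4.

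Irx2 (ENSMUSG00000001504; GRCm38 chromosome 13, 72628820 to 72634198, plus strand) encodes one of the Iroquois factors known from the α-cell. It had 22, 24, 11 and 10 counts in control replicates 1 to 4 and 58, 55, 29 and 46 counts in Klf4 replicates 1 to 4. These counts correspond to 0.467, 0.493, 0.223 and 0.207 CPM in the control libraries and 1.12, 1.21, 0.551 and 0.872 CPM in the Klf4 libraries. Every Klf4 library was above every control library, although the lowest, replicate 3, lay close to control replicate 2. The mean rose 2.70-fold, from 0.348 ± 0.154 to 0.940 ± 0.297 CPM (SD, n = 4; exact permutation p = 0.0286, the smallest that 4 against 4 libraries allow). The permutation took no account of batch. The log2 fold change was 1.46 (SE 0.27, edgeR adjusted p = 0.00016).

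The batches set much of the spread of Irx2. The libraries of batch 2 were lower than those of batch 1 within each group, and the batch term of the same model was -0.87 on the log2 scale (SE 0.27, edgeR adjusted p = 0.0198), a call shared by 25.1% of all tested genes. None of the other 4 genes passed this test of batch. The plasmid effect on Irx2 was 1.27 in batch 1 (edgeR adjusted p = 0.00526) and 1.73 in batch 2 (0.00526), and the difference between batches was not called (interaction 0.44, SE 0.57, edgeR adjusted p = 0.855). Over all tested genes, 0.766% had such a call.

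Irx5 (ENSMUSG00000031737; chromosome 8, 92357625 to 92376286, plus strand), an Iroquois factor known from heart and retina, was the most abundant of the 5 in both groups. It had 25, 28, 23 and 25 counts in control replicates 1 to 4 and 183, 132, 231 and 209 in Klf4 replicates 1 to 4. The control libraries stood closely together, between 0.467 and 0.575 CPM, and the lowest Klf4 library, replicate 2, was at 2.92 CPM. The mean rose 7.09-fold, from 0.523 ± 0.0447 to 3.70 ± 0.63 CPM (SD, n = 4; exact permutation p = 0.0286). The log2 fold change was 2.81 (SE 0.17, edgeR adjusted p = 5.06e-12).

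For Irx5 the effect was 2.54 in batch 1 and 3.09 in batch 2 on the log2 scale. Their difference was not called (0.54, SE 0.36, edgeR adjusted p = 0.648). A dispersion index compared the spread between libraries of a group with that of counting alone, which would give about 1. It was 0.188 for Irx5 in the control libraries and 5.16 in the Klf4 libraries, which come from both batches. For Irx2 the index was 3.29 in control and 4.77 in Klf4 libraries, with the batch difference included.

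Irx3 (ENSMUSG00000031734; chromosome 8, 91798525 to 91802067, minus strand), known for its part in neural patterning, went from no counts to the next highest level after Irx5. It had 0 counts in each of the 4 control libraries and 95, 69, 123 and 116 counts in Klf4 replicates 1 to 4. These are 1.84, 1.52, 2.34 and 2.20 CPM, with a mean of 1.98 ± 0.367 CPM (SD, n = 4). Against a floor of 3 counts in a control library, 0.0621 CPM, this was at least 31.8-fold higher. Because the gene passed the filter only through the Klf4 libraries, its call (edgeR adjusted p = 1.6e-11) was nearly fixed beforehand. In all, 553 tested genes reached the filter's 0.204 CPM in no control library and in all 4 Klf4 libraries, and 549 of these were called higher.

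A total of 3796 genes had 0 counts in every control library and a count in at least 1 Klf4 library. Only 83 of these passed the filter, and all 83 were called higher. By mean level in the Klf4 libraries Irx3 ranked 23 among the 83. Exons of Irx3 overlap those of Irx3os, a non-coding gene on the opposite strand, and whether the counting used strand is not given in the sources used here, so reads of the overlap cannot be assigned with certainty. Irx3os had no count in control and 10, 3, 2 and 7 counts in Klf4 replicates 1 to 4, far fewer than Irx3. The values of Irx3os, and of Gm20554 and Crnde below, were picked out after they had been seen.

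Irx1 (ENSMUSG00000060969; chromosome 13, 71957921 to 71963723, minus strand), the other Iroquois gene known from the α-cell, remained at the edge of detection. It had 0 counts in every control library and 2, 0, 6 and 8 counts in Klf4 replicates 1 to 4. The groups overlapped, because Klf4 replicate 2 was also at 0, and only replicates 3 and 4, both of batch 2, were above the floor of 3 counts. The difference in mean level was not called (0 against 0.0761 ± 0.0692 CPM, SD, n = 4; exact permutation p = 0.143). The gene did not pass the filter. In a fit without the filter, where 12.7% of 33674 genes were called higher and 9.73% of the 19921 with a control mean under 1 CPM, it had an edgeR adjusted p of 0.0424. That became 0.106 when replicate blocks took the place of batch and 0.08 in the DESeq2 Wald test, and the call was also lost without control replicate 3 or 4 or Klf4 replicate 1, 3 or 4. The Klf4 mean exceeded the floor at least 1.23-fold. P-values of the fit without the filter follow a normal approximation and are not on the scale of those with the filter. For Irx5 the edgeR adjusted p was 6.18e-56 without the filter and 5.06e-12 with it.

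Pou3f4 (ENSMUSG00000056854; chromosome X, 110814280 to 110817207, plus strand, a gene with a single exon) was counted at a low level in both groups. It had 9, 4, 8 and 1 counts in control replicates 1 to 4 and 18, 5, 0 and 7 counts in Klf4 replicates 1 to 4. The groups overlapped entirely, and the highest and the lowest library were both Klf4 libraries. Mean levels were 0.114 ± 0.0775 and 0.148 ± 0.146 CPM (SD, n = 4; exact permutation p = 0.771). It did not pass the filter, and without the filter its log2 fold change was 0.25 with a 95% interval of -0.99 to 1.49 (SE 0.63, edgeR adjusted p = 0.845). The upper end of the interval reaches the size of the change in Irx2 and stays below that in Irx5. It rests on few counts and a normal approximation in the fit without a filter, so a change of either size was not excluded.

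The sign of the Pou3f4 difference rested on single libraries. Without Klf4 replicate 1, which had the 18 counts, the log2 fold change was -0.40, and it was -0.09 without control replicate 2 and -0.08 without Klf4 replicate 4. It was 0.76 in batch 1 and -0.45 in batch 2. The dispersion index of 7.42 in the Klf4 libraries, against 2.53 in control, was the highest of the 5 genes.

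The promoters of Irx3 and Irx2, which were higher in the Klf4 libraries, and of Pou3f4, which was not called, are shown because Klf4 is known to bind CACCC-type sequences. They run from 250 bases before to 50 bases after the RefSeq start on GRCm38.p6, and RefSeq promoters were at hand for 3 of the 5 genes. Each is written 5′ to 3′ on the strand of its gene, and capitals mark CACCC or its reverse complement GGGTG. They lie at chr8:91801605-91801904 on the minus strand for Irx3, chr13:72628570-72628869 on the plus strand for Irx2 and chrX:110814129-110814428 on the plus strand for Pou3f4. For Irx3 and Pou3f4, but not for Irx2, the RefSeq start differs from the start in the gene bounds given above. By those bounds the whole Irx3 window lies within the gene, downstream of its start. More than the last 50 bases of the Pou3f4 window do so too.
Irx3: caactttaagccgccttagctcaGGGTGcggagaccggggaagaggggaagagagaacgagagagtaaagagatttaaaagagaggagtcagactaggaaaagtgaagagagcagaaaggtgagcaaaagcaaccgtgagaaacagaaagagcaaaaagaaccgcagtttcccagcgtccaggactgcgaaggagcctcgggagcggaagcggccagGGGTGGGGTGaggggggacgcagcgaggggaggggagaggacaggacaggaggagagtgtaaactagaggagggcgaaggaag
Irx2: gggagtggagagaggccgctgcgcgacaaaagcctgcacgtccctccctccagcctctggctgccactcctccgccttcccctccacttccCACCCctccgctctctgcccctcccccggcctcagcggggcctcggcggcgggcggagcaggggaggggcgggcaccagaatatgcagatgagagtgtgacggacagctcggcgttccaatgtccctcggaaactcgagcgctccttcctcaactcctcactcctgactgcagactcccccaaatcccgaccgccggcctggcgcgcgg
Pou3f4: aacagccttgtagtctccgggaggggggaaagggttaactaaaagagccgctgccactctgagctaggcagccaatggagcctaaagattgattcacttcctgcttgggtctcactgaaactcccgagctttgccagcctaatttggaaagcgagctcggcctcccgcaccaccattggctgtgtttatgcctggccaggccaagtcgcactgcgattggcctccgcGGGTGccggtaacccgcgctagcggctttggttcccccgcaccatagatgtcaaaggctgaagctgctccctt

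The Irx3 promoter held 3 matches to CACCC on either strand, all as GGGTG, of which the last 2 stand side by side. The Irx2 and Pou3f4 promoters held 1 each. Of 32851 RefSeq promoter sequences of the same length, 57.5% held at least 1 match and 9.35% held at least 3. The longer form CCCCACCC, read on the other strand as GGGTGGGG and containing CACCC, occurred once in the Irx3 promoter and not in the other 2, against 9.99% of all promoters. Such a match is a description of the letters in this window. GC content was 56.0% for Irx3, 69.0% for Irx2 and 57.7% for Pou3f4.

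The remaining Iroquois genes, Irx4 and Irx6, were counted in the same way to place the 5 genes in their family. Irx4 (chromosome 13), known from the ventricles of the heart, had 0, 1, 1 and 0 counts in control replicates 1 to 4 and 41, 43, 82 and 76 counts in Klf4 replicates 1 to 4. The depth-scaled ratio of its summed counts was 115.6, with an exact 95% interval of 31.7 to 960.4 that covers counting error only. Irx6 (chromosome 8) had no count in control and 10, 8, 16 and 33 counts in Klf4 replicates 1 to 4. Its exons overlap those of Gm45505, which had no count. It was below the filter, exceeded the floor at least 5.24-fold, and had an edgeR adjusted p of 8.35e-11 in the fit without a filter. That p-value is not on the scale of those with the filter. Of the 4 family members that passed the filter, Irx3 and Irx4 did so only through the Klf4 libraries, so that their calls were nearly fixed by it. Irx2 and Irx5 passed it in both groups.

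Summed over the 6 Iroquois genes, the control libraries held 0.881 ± 0.192 CPM and the Klf4 libraries 8.21 ± 1.25 CPM (SD, n = 4), 9.32 times as much. The make-up of the sum also differed. In control libraries Irx5 gave 52.8% to 71.4% and Irx2 28.6% to 46.8% of it, and in Klf4 libraries Irx5 gave 42.8% to 47.4%, Irx3 22.5% to 25.3%, Irx4 10.5% to 16.8% and Irx2 5.96% to 17.9%. Irx1 stayed at or below 1.64% of the sum in every library. A control library contributed between 35 and 53 counts to this sum, a Klf4 library between 307 and 488, and the shares are a description.

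**Figure D2:**
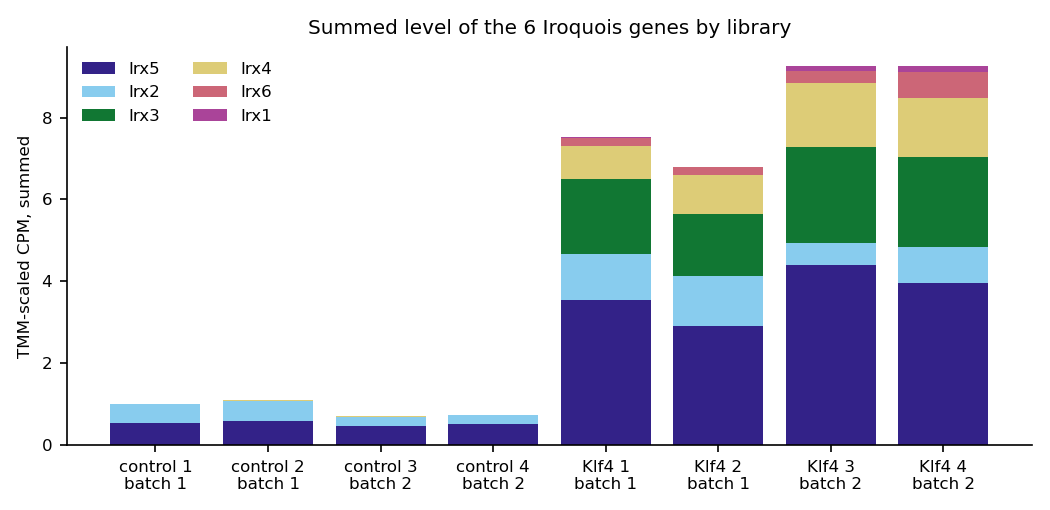
Summed TMM-scaled CPM of the 6 Iroquois genes in each library, with the part of each gene as a coloured segment of the bar. The control libraries lie between 0.71 and 1.09 CPM and hold almost only Irx5 and Irx2, and the Klf4 libraries lie between 6.78 and 9.26 CPM with Irx3 and Irx4 added.

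Levels of different genes were compared per kilobase of exon. In the control libraries the order was Irx5 (0.167 ± 0.0143 CPM per kb), Irx2 (0.106 ± 0.0468), Pou3f4 (0.0390 ± 0.0265) and then Irx4, with Irx1, Irx3 and Irx6 at 0 (SD, n = 4), and every pair of neighbours in that order overlapped between libraries. In the Klf4 libraries Irx5 led with 1.18 ± 0.201 CPM per kb and lay above Irx3, at 0.715 ± 0.133, in every library. Irx4, Irx2 (0.286 ± 0.0905), Irx6, Pou3f4 (0.0505 ± 0.0498) and Irx1 (0.0291 ± 0.0264) followed, each overlapping with the next. Irx2 therefore ranked above Irx3 in control and below it in Klf4 libraries.

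Few stretches of these transcripts could have drawn reads from a paralog. Of all 50-base stretches in the annotated transcripts, none of Irx1, 0.481% of Irx2 (shared with Irx5) and 0.552% of Irx5 (shared with Irx2 and Irx3) occur in another gene. For Irx3 it was 4.16%, shared with Irx3os, Irx5 and Irx6, and for Pou3f4 0.799%.

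Few genes around the clusters could be tested. The 3 nearest on each side of each Iroquois cluster and of Pou3f4 made 18 genes. Of these, 9 had no count in any library and 3 were tested. None of the 3 was called, where 36.6% of all tested genes were, and 3 genes are too few to set against that share. Ndufs6, a subunit of respiratory complex I beside Irx4, was at 85.3 ± 10.1 and 79.3 ± 6.5 CPM (SD, n = 4; edgeR adjusted p = 0.0583, and 0.0114 without the filter), and Rps6ka6, a ribosomal S6 kinase gene beside Pou3f4, at 42.2 ± 1.45 and 42.8 ± 1.18 CPM (0.737). Between the cluster members lie another 23 annotated genes, 16 of them without a count. The 3 that were tested were not called. Irx3os, below the filter, had an edgeR adjusted p of 0.0035 in the fit without it, which is on another scale. Crnde, a non-coding gene that starts 1505 bases from Irx5 in the opposite direction, had 5.20 ± 0.318 CPM without and 5.84 ± 0.339 CPM with the Klf4 plasmid (SD, n = 4) and was not called (edgeR log2 fold change 0.17 with SE 0.09, adjusted p = 0.164), while Irx5 rose 7.09-fold.

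At Irx2 the divergent neighbour behaved otherwise. Gm20554, a long intergenic non-coding gene whose start is 256 bases from that of Irx2, had 2, 3, 2 and 4 counts in control replicates 1 to 4 and 11, 16, 8 and 13 in the Klf4 libraries. The groups did not overlap, and the mean was 4.24-fold higher. It was below the filter, and in the fit without it the log2 fold change was 2.01 (SE 0.62, edgeR adjusted p = 0.00709, not on the scale of those with the filter).

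**Figure D3:**
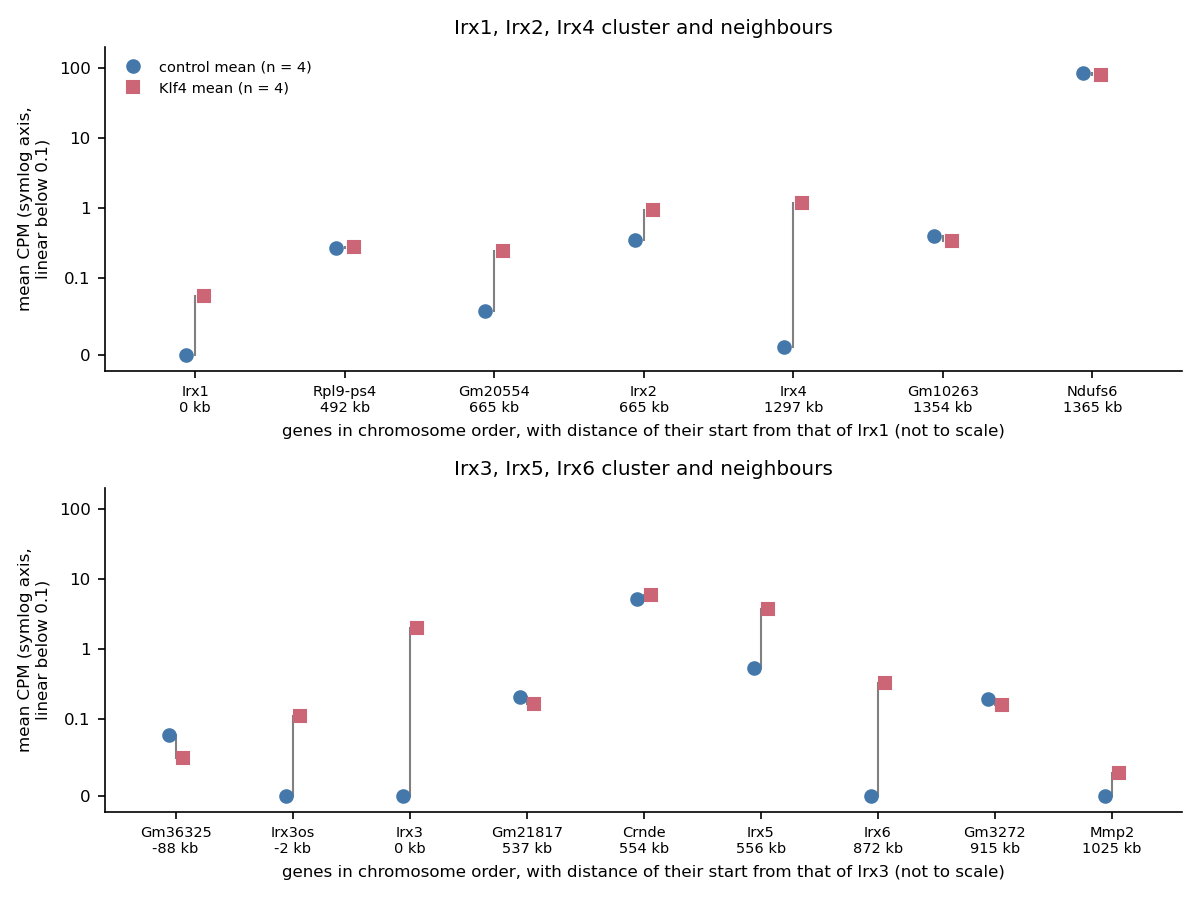
Mean CPM in control (circles) and Klf4 libraries (squares; n = 4 each) for the genes in and beside the Iroquois clusters with at least 5 counts in all, in chromosome order, on an axis that is logarithmic above 0.1 CPM and linear below. The Iroquois genes, Gm20554 and Irx3os lie higher in the Klf4 libraries, and the means of Crnde and Ndufs6 nearly coincide.

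Pou3f4 was set beside the other POU-domain genes. Of 15 in the table, 8 were tested. Among these Pou3f2, Pou3f3 and Pou4f2 passed the filter only through the Klf4 libraries, which nearly fixed their calls. Of the other 5, 3 rose (Pou2f2, Pou3f1 and Pou4f1) and 2 were not called, where 21.1% of all tested genes rose. Closest to Pou3f4 in class are Pou3f1, Pou3f2 and Pou3f3, factors known from brain and peripheral nerve. Pou3f3 had 0 counts in every control library and 27, 15, 29 and 34 in Klf4 replicates 1 to 4, at least 8.26-fold above the floor. Pou3f2 had 1, 0, 1 and 2 counts in control and 33, 48, 27 and 49 in Klf4 libraries, and Pou3f1, whose exons overlap a gene on the opposite strand, rose 1.63-fold, from 0.904 ± 0.197 to 1.47 ± 0.264 CPM (SD, n = 4; edgeR adjusted p = 0.0103). Whether the effect on Pou3f4 differed from that on these genes was not tested.

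Of the remaining POU genes, Pou4f2, a factor of retinal ganglion cells, had 3 counts in all control libraries together and 64, 58, 69 and 68 in the Klf4 libraries (depth-scaled ratio 82.5, exact 95% interval 27.9 to 402.7 for counting error). Pou4f1, of sensory neurons, rose from 33.9 ± 2.74 to 46.6 ± 2.89 CPM (SD, n = 4; edgeR log2 fold change 0.46 with SE 0.04, adjusted p = 4.91e-09), and Pou2f2 by 0.16 (edgeR adjusted p = 0.00728). The widely expressed Pou2f1 was at 42.7 ± 1.96 and 43.8 ± 3.54 CPM and Pou6f1 at 13.4 ± 1.13 and 13.4 ± 0.74 CPM (SD, n = 4), neither of them called. The call for Pou2f2 was lost without the batch term.

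Of the TALE homeobox genes outside the Iroquois family, 12 were tested and 10 were not called, where 36.6% of all tested genes were called. Their median log2 fold change was 0.01, against -0.01 over all tested genes. Tgif2, a repressor of TGF-β target genes, had 0.0978 ± 0.0439 CPM without and 0.622 ± 0.118 CPM with the Klf4 plasmid (SD, n = 4). It passed the filter only through the Klf4 libraries, which nearly fixed its call, and it overlaps exons of other genes on the opposite strand. Mkx, a tendon factor, fell by 0.16 on the log2 scale (SE 0.05, edgeR adjusted p = 0.0109), a call that was lost with scaling factors set from abundant genes, under which Meis3 was called higher. The cofactor gene Meis3 had 63.9 ± 1.78 CPM without and 67.6 ± 1.98 CPM with the Klf4 plasmid (SD, n = 4) and was not called, and neither was Pbx3 (log2 fold change -0.04).

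Of 11 other genes enriched in α-cells, all tested, 1 rose, 6 fell and 4 were not called, where 21.1% of all tested genes rose and 15.5% fell. The list leaves out Irx1, Irx2 and Pou3f4. It had a median log2 fold change of -0.08 and a range from -0.34 to 0.12. Gcg, which encodes glucagon, had 73.3 ± 14.2 CPM without and 71.3 ± 20.3 CPM with the Klf4 plasmid (SD, n = 4; edgeR log2 fold change -0.06 with SE 0.05, adjusted p = 0.379). These SDs include a batch term of -0.59 on the log2 scale (edgeR adjusted p = 7.23e-09). The plasmid effect on Gcg was 0.05 in batch 1 alone (edgeR adjusted p = 0.609) and -0.16 in batch 2 alone (0.016). Their difference was not called (interaction -0.22, edgeR adjusted p = 0.221). Wnk3, a kinase gene, fell from 64.2 ± 6.73 to 52.9 ± 4.59 CPM (SD, n = 4; edgeR log2 fold change -0.28 with SE 0.04, adjusted p = 1.7e-05), and its exons overlap those of a gene on the opposite strand. The log2 fold changes of the others called were -0.34 for Dpp10, -0.25 for Gc, -0.22 for Etv1, -0.19 for Slc7a2, -0.07 for Papss2 and 0.12 for Mamld1. Ttr (-0.02) and Slc38a5 (0.02) were not called.

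Endocrine transcription factors shared by α- and β-cells gave 1 higher, 2 lower and 5 uncalled genes among 8, with a median log2 fold change of -0.03. Over all tested genes 21.1% were higher and 15.5% lower. For Foxa1, a forkhead factor that acts on the glucagon gene, the level rose from 2.05 ± 0.488 to 3.20 ± 0.842 CPM (SD, n = 4; edgeR log2 fold change 0.63 with SE 0.14, adjusted p = 0.00134). Nkx2-2 (-0.20) and Neurod1 (-0.14) fell, and Pax6 (-0.06), Insm1 (0.03) and Isl1 (0.07) were not called. Without the batch term the calls for Foxa1 and Neurod1 were lost, and of the 7 calls in the α-cell list those for Dpp10, Slc7a2, Mamld1 and Papss2. Mamld1, the gene of that list that rose, was also not called by the DESeq2 Wald test. With factors from abundant genes, which made 72.8% of all calls higher against 57.7% with TMM, Papss2 was no longer called and Isl1 was called higher.

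**Figure D4:**
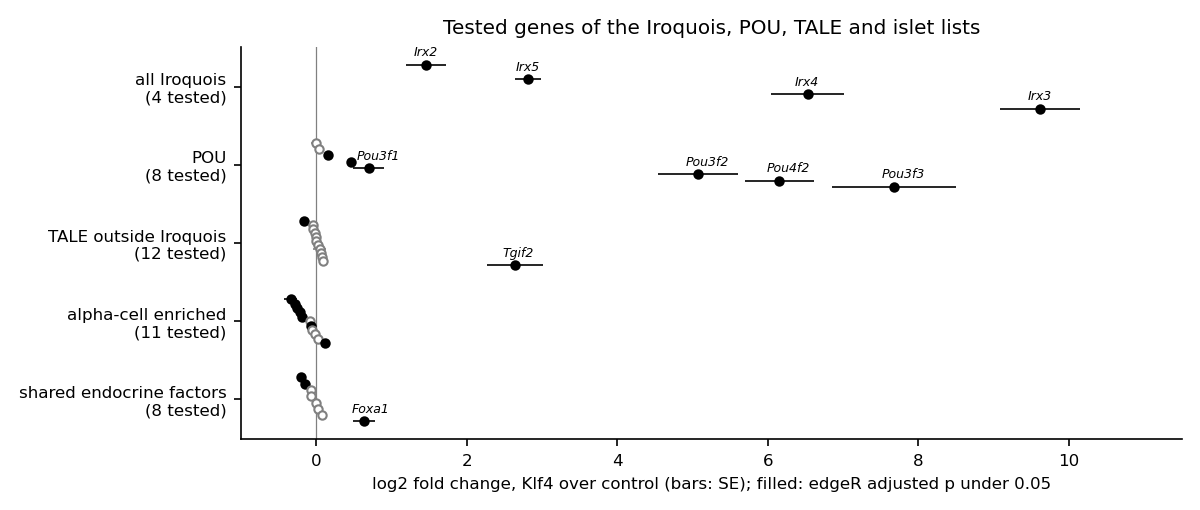
Log2 fold change, Klf4 over control, with its SE from the fit to all genes, for each tested gene of 5 lists; filled points have an edgeR adjusted p under 0.05. The Iroquois points lie between 1.46 and 9.61 and the α-cell points between -0.34 and 0.12, and Irx3, Irx4, Pou3f2, Pou3f3, Pou4f2 and Tgif2 passed the filter only through the Klf4 libraries. The 9.61 is Irx3, at 0 counts in every control library, so that its size depends on the method (9.0 by DESeq2 and 7.57 by limma-voom).

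Markers of other cell types were read in the same libraries. The 4 endothelial markers summed to 13.5 to 16.7 CPM in control libraries and to 18.5 to 21.1 CPM with the Klf4 plasmid, with 2 of 4 higher (Plvap, and Cdh5 from 0 counts, which passed the filter only through the Klf4 libraries) and Kdr at or under 3 counts in every library. The 4 fibroblast markers summed to 2.61 to 3.82 CPM in control libraries and to 5.44 to 6.97 CPM with the Klf4 plasmid, with 2 of 4 higher (Col1a1, and Pdgfra, which passed in the same way) and Col3a1 at or under 3 counts everywhere. Of 3 duct markers Krt19 was higher, and the sum went from between 0.518 and 0.945 CPM to between 3.09 and 4.49 CPM. The other tested markers of these cell types, Pecam1, Col1a2 and Spp1, were not called. Over all tested genes 21.1% were higher, and 29.4% of those with a control mean under 1 CPM. Of the δ-cell (2), acinar (5) and macrophage (4) markers only Cela1 and Cd68 passed the filter, and neither was called. The markers called higher went the same way as Irx2, Irx3 and Irx5, and their part in the result was not tested.

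The genes whose pattern was most like each tested Iroquois gene were sought among 12870 genes, by Pearson's r of log2 CPM over the 8 libraries after the batch means were taken out. For Irx2 these were Lsr (r = 0.998), Sdc3 (0.997) and Wdr62 (0.995), with log2 fold changes of 0.29 to 0.36. For Irx3 they were Fam25c, Tcf23 and Calm4 (r = 1.00 for each), all at 0 counts in every control library, and for Irx5 Crybg2, Dnah17 and Elf3 (r = 0.999 for each). Klf4 itself had an r of 0.974 with Irx2, 0.999 with Irx3 and 0.995 with Irx5. Such values are common when 4 libraries stand against 4: 1174 genes had an r of at least 0.95 with Irx2, 1356 with Irx3 and 1377 with Irx5.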

How the data were processed

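The deposited values were whole-number read counts per gene, 1 column per library. STAR, featureCounts, FastQC, edgeR and the mm10 build are named, with no role, in the submitters' processing notes; the table's name mentions cutadapt, and strand setting and annotation are not given in the sources used here. Coordinates and exon lengths came from GENCODE M21 (GRCm38), promoters from RefSeq (GRCm38.p6).

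Counts were analysed in edgeR 4.0.16 (limma 3.58.1, R 4.3.3): filterByExpr with a minimum count of 10, TMM factors (0.996 to 1.01), a quasi-likelihood fit with terms for batch and plasmid, and Benjamini-Hochberg adjustment over 18266 genes. SEs were taken from the F statistics. Of the 37270 genes under the filter, those with a count were examined in a fit of all 33674 genes with at least 1 count. P-values of that fit follow a normal approximation and are not comparable with those with the filter. Single values were compared by two-sided exact permutation over 70 relabellings, which took no account of batch. Alternatives were no batch term, the replicate block, DESeq2 1.42.0, limma-voom, other scalings and filters, each batch alone and each library left out. Deviations of same-numbered libraries correlated at 0.459 to 0.614 over 10485 genes in the 4 pairs; the labels tie the numbers to batches. On simulated counts for the plasmid comparison (18266 genes), 92 of 99 genes changed by 1 on the log2 scale and 99 of 101 changed by 2 were recovered. There were 6 false calls. The simulation gave all genes the same dispersion, held no batch effect and changed few genes. It therefore checks that the code runs as meant and does not measure recovery in these data or at low counts. P-values measure the spread between these libraries. The members and gene lists were chosen with earlier results of these data known. Genes named from a list were those past the threshold (up to 6) and uncalled genes of at least 10 CPM (up to 3), with further genes named where a count or a neighbour called for it. A TALE gene that this rule names is not reported here. Likeness used a prior count of 2 and left out genes whose average log2 CPM was under 1. Figures were drawn with matplotlib 3.10.9.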

Additional observations from a re-analysis of the deposited data

Results flagged for a closer look

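No library stood apart for any of the 5 genes. Among all 38 named genes the check was made 76 times, and 3 libraries stood apart, where chance gives about 1 in 20 groups. Pou6f1 was at 12.3 CPM in Klf4 replicate 3, against 13.7 to 13.9 CPM in the other Klf4 libraries. Mamld1 was at 27.6 CPM in Klf4 replicate 4, against 29.7 to 30.2 CPM. Nkx2-2 was at 139.0 CPM in control replicate 2, against 149.6 to 150.9 CPM. The effect of the plasmid differed between batches by edgeR's interaction test for Klf4 (0.37 on the log2 scale, adjusted p = 0.0057) and for Etv1 (-0.22, adjusted p = 0.0295).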

How the results depend on the processing

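Irx2 and Irx5 kept their direction and their call in every alternative that tested them; for Irx2 these were 17, because a filter at 1 CPM in 4 libraries removed it (as it did Irx1 and Pou3f4), and for Irx5 18. Their log2 fold changes ranged from 1.27 to 1.73 and from 2.54 to 3.09. The call of Irx3, at 0 counts in every control library, was nearly fixed by the filter and is no test of stability. For Irx1 the call in the fit without a filter was lost with the replicate block (log2 fold change 4.85), the DESeq2 Wald test (3.90), batch 1 alone (3.14), batch 2 alone (5.78) and 5 of 8 omissions of a library (4.51 to 4.96; over all 8, 4.51 to 5.23). Pou3f4 was called in no alternative: its log2 fold change was -0.45 in batch 2 alone and ran from -0.40 to 0.91 when a library was left out. Differences in mean CPM without 1 library ran from -0.033 to 0.0831 for Pou3f4, from 0.0509 to 0.101 for Irx1 (exact permutation p = 0.0286 without Klf4 replicate 2, which was at 0) and from 0.501 to 0.722 for Irx2, where leaving out any control library gave an exact permutation p of 0.0571. Over all genes 6684 were called, 4116 without the batch term, 6284 with the replicate block in place of batch and 5889 to 7074 without 1 library. The block changed no other call among the 5 genes. With factors from genes of an average log2 CPM of at least 6, 72.8% of calls were higher against 57.7% with TMM. The low counts limit Irx1 and Pou3f4: 3 counts in a control library are 0.0621 CPM.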
